A study of Mus musculus with 4 samples.

Results

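Malat1, Neat1 and 5 further long non-coding RNAs (lncRNAs), Miat, Snhg11, Snhg1, Gas5 and Snhg14, were followed in the cerebral cortex of 12-month-old mice. The APP group carried the APPswe/PS1ΔE9 transgenes (APP/PS1 transgenic in the labels, C57BL/6 background), which encode human APP and PS1 and are used to model the amyloid deposition of Alzheimer's disease. The WT group was wild type on the same background. All animals were male and each library came from its own mouse. The comparison was of 2 APP and 2 WT mice, and nothing beyond anaesthesia before dissection is listed for either group. As background, the transgenes of this line are driven by the mouse prion protein promoter, which acts in many cell types of brain. The libraries are called APP.3, APP.4, WT.1 and WT.2 after their columns. The total per library ran from 28525117 to 43881196 counts over 37539 Ensembl transcripts, which were summed to 18386 gene features. The rule picks members out of the table by gene name and uses no measured value of the table. Of the 7, only Snhg11 carried its symbol in the count table, and 5 were found by their Ensembl transcript identifiers. Snhg1 was matched to no row and is not analysed here. All 18 of its GENCODE M21 transcripts have identifiers above the highest one counted, so the missing row is no measure of its level. The 6 counted genes were covered by 45 transcripts, namely 20 of Gas5, 14 of Snhg14, 5 of Miat, 4 of Snhg11 and 1 each of Malat1 and Neat1. Markers of cortical neurons, astrocytes, oligodendrocytes and microglia were all detected in every library, as were striatal markers. The summed level of the 8 striatal markers differed more between the 2 APP mice (189 and 407 CPM in APP.3 and APP.4) than between the WT mice (280 and 298 CPM), where CPM is the read count scaled to the TMM-adjusted total of its library.

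Malat1, Neat1 and Miat stay largely in the nucleus. Malat1 accumulates in nuclear speckles, where splicing factors are stored, and Neat1 is the architectural RNA around which paraspeckles assemble with the proteins Sfpq and Nono. Miat (also known as Gomafu) forms its own nuclear foci in neurons and binds splicing factors. Gas5, Snhg1, Snhg11 and Snhg14 are host genes whose introns carry small nucleolar RNAs (snoRNAs). Snhg14 is the long imprinted transcript that runs from the Snrpn locus across the Snord116 and Snord115 clusters and silences the paternal Ube3a in neurons.

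Malat1 and Neat1 are neighbours, and Malat1 shares an unusual 3′ end with the long form of Neat1, annotated as Neat1-201. This end is made not by polyadenylation but by RNase P, which cuts just upstream of a tRNA-like small RNA. The RNA subunit of RNase P, Rpph1, was the centre of the study. The 3′ regions are shown because they end in an A-rich tract encoded in the genome, not in an added poly(A) tail, so that RNA depleted of ribosomal RNA keeps both transcripts. They come from the GENCODE M21 transcripts (GRCm38) and are written 5′ to 3′ on the minus strand. Capitals mark the U-rich motif TTTNCTTTT and the A-rich tract AAAAAGCAAAA, the latter taken from the last bases of Neat1-201.
Malat1, chr19:5795918-5796076: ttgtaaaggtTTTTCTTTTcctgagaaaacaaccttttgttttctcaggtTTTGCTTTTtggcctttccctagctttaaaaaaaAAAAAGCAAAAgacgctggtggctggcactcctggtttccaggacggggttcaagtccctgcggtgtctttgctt
Neat1, chr19:5824708-5824769: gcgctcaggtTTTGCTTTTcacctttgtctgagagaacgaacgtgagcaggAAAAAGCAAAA
The annotated Neat1-201 stops at the last base of its A-rich tract, whereas the annotated Malat1-201 runs on for 292 bases, of which the first 64 are shown. Searched on the transcript strand, TTTNCTTTT was present in 20.3% of the 2251 counted lncRNA transcripts and AAAAAGCAAAA in 0.666%. The arrangement of the first within 150 bases before the second was found in 2 transcripts, Neat1-201, from which the tract was taken, and Malat1-201.

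The miRNAs that the study linked to Rpph1, miR-326-3p and also miR-330-5p, have the same seed. Their mature sequences are shown with the seed (bases 2 to 8) in capitals (RefSeq, GRCm38.p6).
mmu-miR-326-3p: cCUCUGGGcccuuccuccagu
mmu-miR-330-5p: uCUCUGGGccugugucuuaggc
The matching 7-letter element CCCAGAG was searched on the transcript strand. It was present 3 times in Snhg11, 4 times in Miat, 2 times in Neat1 and 1 time in Snhg14, and it was not found in Malat1 or Gas5. Over all counted lncRNA transcripts it occurred 741 times, and 24.8% of them held at least 1 copy. Per kb it occurred 0.167 times over those transcripts, against 0.37 in Miat, 0.27 in Snhg11, 0.096 in Neat1 and 0.035 in Snhg14. The 8-letter form CCCAGAGA also pairs with the first base of miR-330-5p and contains the 7-letter element. It was present in 2 copies in Neat1, 2 in Snhg11 and 1 in Miat, and 9.02% of all counted lncRNA transcripts held any. The member transcripts that hold it are long. Per kb it occurred 0.096, 0.18 and 0.092 times in Neat1, Snhg11 and Miat, against 0.049 over all counted lncRNA transcripts. These 8-letter matches are shown in capitals with 11 bases on each side, on the strand of the gene. They are matches of letters only.
Neat1-201 exon 1, chr19:5835748-5835777: cctcccagggtCCCAGAGAgtcagacactg
Neat1-201 exon 1, chr19:5830197-5830226: ccgccacatggCCCAGAGAtcaaacacagg
Snhg11-201 exon 5, chr2:158382705-158382734: ccgttttggcaCCCAGAGAccaaaccccac
Snhg11-201 exon 5, chr2:158385314-158385343: aaggactgcatCCCAGAGAccaccagacaa
Miat-201 exon 7, chr5:112219200-112219229: tggtgctcagcCCCAGAGActcacaccaca

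The 6 genes together took 2.48% to 2.67% of all counts. Malat1 alone held 39.7% to 41.7% of the counts of all lncRNA features and had rank 3 among all gene features in every library. Neat1 was far lower, at rank 2300 in APP.3 and 3342 in WT.1, and Gas5 lay between rank 1673 and 2167, so that neither was among the most abundant features. Set per kb of transcript, so that genes can be compared, the WT levels were 3801 ± 216 CPM per kb for Snhg14 (SD, n = 2), 2793 ± 29.4 for Malat1, 196 ± 7.29 for Snhg11, 130 ± 7.86 for Gas5, 31.2 ± 1.48 for Miat and 2.78 ± 0.0984 for Neat1. The values of genes next to each other in this order did not overlap in the WT libraries. The place of Snhg14 depends on the length used, because its transcripts are many and short. Divided by its longest transcript the WT level of Snhg14 was 622 CPM per kb, below that of Malat1, while Gas5 came to 35.6 and Miat to 27.2 CPM per kb.

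No member passed the cut-offs for a difference between APP and WT (adjusted p below 0.05 in edgeR's quasi-likelihood test and a fold change of at least 1.5), against 0.881% of all gene features. None passed the adjusted p alone, against 1.14% of all features and 0.151% of lncRNA features. Neat1 showed the widest difference and Gas5 the next, both with higher values in APP. Malat1, Miat, Snhg11 and Snhg14 lay within 0.08 of 0 on the log2 scale. The groups did not overlap for 2 of the 6 genes, Neat1 and Gas5, both higher in APP. Among all features 21.3% had such higher, non-overlapping values, and 18.0% of those above 10 CPM. With 2 mice in each group an exact permutation test cannot give a p below 0.333, so p-values here rest on the spread modelled across all features, and fewer cells of a type and less RNA per cell cannot be told apart in bulk tissue.

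**Figure D1:**
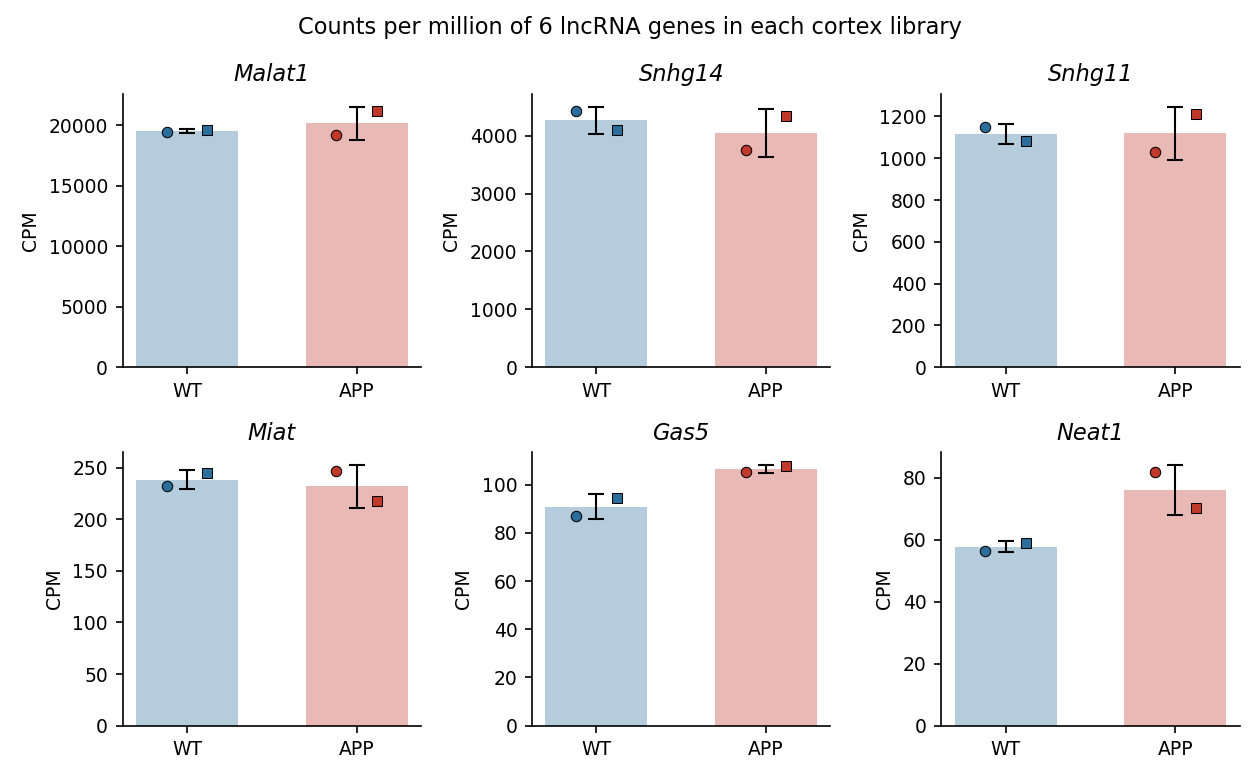
CPM of 6 lncRNA genes (vertical axes, linear, from 0, each with its own scale) in the WT and APP libraries. Bars are group means, error bars the SD of 2 mice, circles WT.1 or APP.3 and squares WT.2 or APP.4. The APP and WT points are apart only for Gas5 and Neat1, and they overlap for Malat1, Snhg14, Snhg11 and Miat.

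Neat1 (chr19:5824708-5845478, minus strand, GRCm38) was counted as a single transcript, Neat1-201, the single-exon lncRNA of 20771 bases that seeds paraspeckles. Any forms of other length were not told apart from it. APP.3 and APP.4 held 2374 and 2181 Neat1 counts, or 81.8 and 70.4 CPM. WT.1 and WT.2 held 2483 and 2097, or 56.5 and 59.2 CPM. Both APP mice were thus above both WT mice, and APP.3 was the highest. The mean was 76.1 ± 8.07 CPM in APP and 57.8 ± 1.88 CPM in WT (SD, n = 2 each), which gave a log2 fold change of 0.40 with a 95% interval of 0.20 to 0.59. Adjusted over all 18386 features, the p from edgeR's quasi-likelihood test was 0.0744. When the test was run per transcript, the unit of the deposited table, Neat1-201 had a log2 fold change of 0.40 and an adjusted p of 0.0377, under 0.05 but below the fold cut-off. It was the only one of the 45 member transcripts past 0.05, against 1.06% of all transcripts. The counts of Neat1-201 are those of the gene, so this is not a second observation. The adjusted p differs because the modelled spread and the set of features tested differ.

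The gene-level adjusted p of Neat1 depended on the tool. It was 0.0109 with DESeq2, 0.00619 with edgeR's exact test and 0.00587 with edgeR's likelihood ratio test, which put 1.83%, 3.03% and 3.26% of all features past 0.05. The log2 fold change stayed between 0.28 (without APP.3) and 0.50 (without APP.4) when 1 library was left out. The adjusted p of the quasi-likelihood test was 0.341 without WT.1, 0.234 without WT.2, 0.00691 without APP.3 and below 0.05 without APP.4.

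Measured against Malat1, its abundant neighbour transcribed from the same strand, Neat1 had 4.28 (APP.3), 3.33 (APP.4), 2.91 (WT.1) and 3.01 (WT.2) counts for every 1000 Malat1 counts. This within-library ratio was higher in both APP mice and was spread more between the APP mice than between the WT mice. It reuses the Neat1 counts over a Malat1 level that hardly differed between the groups, so it restates the Neat1 difference. The genes whose levels ran most like Neat1 over the 4 libraries, among 9348 genes of at least 10 CPM, were Mobp, a myelin protein of oligodendrocytes, Rpl23, a ribosomal protein, and Met, a growth factor receptor. Their distances on the centred log2 CPM scale were 0.0396, 0.0433 and 0.0589, and 8 genes came within 0.1. Mobp itself had 324, 280, 221 and 227 CPM in APP.3, APP.4, WT.1 and WT.2.

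Most markers of glia had higher values in APP, as Neat1 did. All 12 oligodendrocyte markers had higher values in APP, 4 of them (Mag, Cnp and Mobp included) past an adjusted p of 0.05 in the edgeR quasi-likelihood test, and none was at 0. Their summed level was 1920 and 1674 CPM in APP.3 and APP.4 and 1238 and 1377 CPM in WT.1 and WT.2, so that APP.3 was highest, as for Neat1. For every 1000 CPM of these markers Neat1 had 42.6 and 42.1 CPM in the APP mice and 45.7 and 43.0 CPM in the WT mice. On that scale Neat1 was not higher in APP. Such a ratio depends on the list chosen, since the sum of these markers was itself higher in APP. All 12 microglial markers had higher values in APP, 7 of them past an adjusted p of 0.05 in the edgeR quasi-likelihood test, with sums of 458 and 562 CPM in APP and 281 and 279 CPM in WT, where APP.4 and not APP.3 was the higher APP mouse. For every 1000 CPM of the microglial markers Neat1 had 179 and 125 CPM in APP and 201 and 212 CPM in WT. The 10 astrocyte markers summed to 4768 and 5141 CPM in APP and 4280 and 3909 CPM in WT, with Gfap (log2 fold change 2.82) and Aqp4 (0.72) past the adjusted p. Of these 10 markers 9 had higher values in APP and 1 lower, with a median log2 fold change of 0.19. For every 1000 CPM of the astrocyte markers Neat1 had 17.2 and 13.7 CPM in APP and 13.2 and 15.1 CPM in WT, which overlapped. None of the 12 neuronal markers passed the adjusted p, and 9 had lower and 3 higher values in APP. Slc17a7, a glutamate transporter of excitatory neurons, had a log2 fold change of -0.29 (adjusted p 0.0818, edgeR quasi-likelihood test). The neuronal sums were 5525 and 4700 CPM in APP and 5232 and 5186 CPM in WT, of which the synaptic protein Syt1 alone gave 1304, 662, 766 and 743 CPM in APP.3, APP.4, WT.1 and WT.2. For every 1000 CPM of the neuronal markers Neat1 had 14.8 and 15.0 CPM in APP and 10.8 and 11.4 CPM in WT, so that on this scale it was higher in both APP mice. The 8 endothelial markers, none past the adjusted p, summed to 81.3 and 76.3 CPM in APP and 82.7 and 78.6 CPM in WT. The part of cell type shares in the Neat1 difference was not tested.

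The gene next to Neat1 on the upstream side and the same strand is Frmd8, 4224 bases away. Frmd8 had 233, 259, 239 and 193 counts in APP.3, APP.4, WT.1 and WT.2. Its log2 fold change was 0.59 (adjusted p 0.0942, edgeR quasi-likelihood test). After scaling for depth its values were higher in both APP mice, and the call was missed, while edgeR's exact and likelihood ratio tests called it. Within 100000 bases of Neat1, 13 features were counted. In the edgeR quasi-likelihood test 0 passed an adjusted p of 0.05 and 3 had an unadjusted p under 0.05. Of those, Frmd8 was higher in APP, while Fam89b (log2 fold change -0.38) and an Sssca1 feature (-0.80) were lower. Over all members 41 neighbouring features were counted, 0 past the adjusted p and 4 at an unadjusted p under 0.05, with a median log2 fold change of -0.05.

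**Figure D2:**
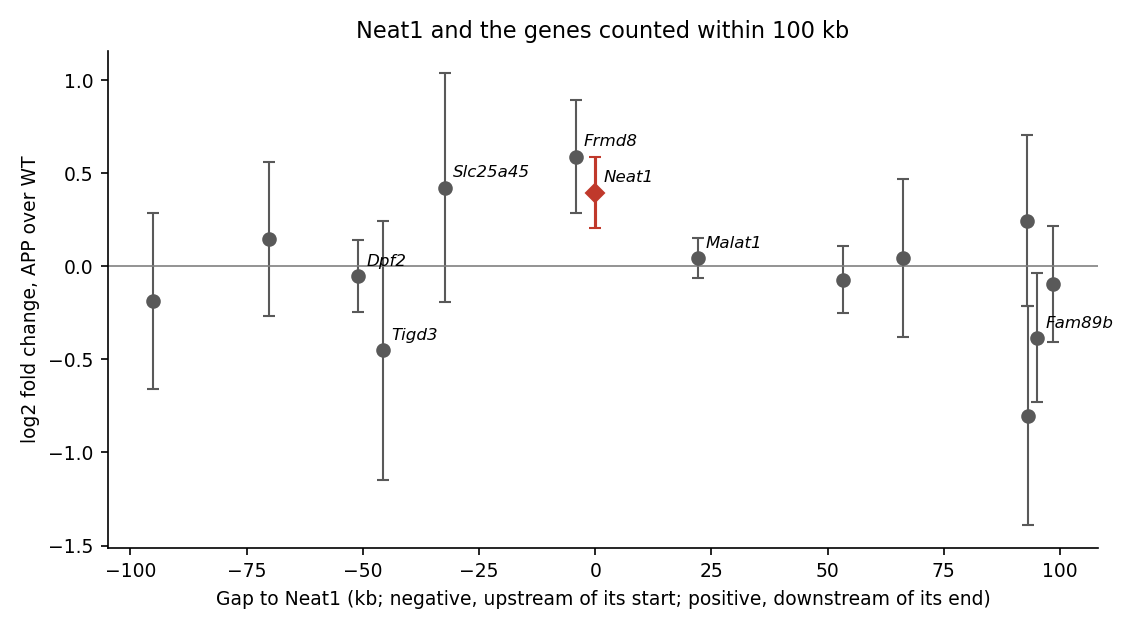
Log2 fold change of APP over WT with its 95% interval (vertical axis) for Neat1 (red diamond at 0) and the 13 features counted within 100 kb (grey), placed by their gap to Neat1 in kb, upstream to the left. Neat1 (0.40) and Frmd8 (0.59) stand above 0 side by side, while Malat1 (0.04), 22 kb downstream, has an interval that includes 0. Fam89b (-0.38) and an Sssca1 feature (-0.80), further downstream, have intervals below 0.

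Malat1 (chr19:5795690-5802672, minus strand) organises speckle-associated transcripts and is among the most abundant nuclear RNAs of brain. It had 555270, 654092, 853400 and 695849 counts in APP.3, APP.4, WT.1 and WT.2, or 19139, 21118, 19420 and 19630 CPM. The WT values lay between those of the 2 APP mice. The mean was 20128 ± 1399 CPM in APP and 19525 ± 148 CPM in WT (SD, n = 2 each), a log2 fold change of 0.04 with a 95% interval of -0.06 to 0.15 and an adjusted p of 0.798 by edgeR's quasi-likelihood test. Unadjusted, the p was 0.380 in that test and 0.736 in edgeR's exact test. The interval of the quasi-likelihood fit reaches a 1.11-fold increase at most. Which APP mouse was kept decided the value, since it was 0.11 without APP.3 (adjusted p 0.00225 in the edgeR quasi-likelihood test) and -0.03 without APP.4. Genes with nearly the same pattern were common, with 1013 of the 9348 within a distance of 0.1. The 3 nearest were Lamc1, a laminin chain, Osbpl9, a lipid transfer protein, and Ints10, a subunit of the Integrator complex, at 0.00617, 0.0153 and 0.0158.

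Miat (chr5:112213228-112229395, minus strand) had 7150, 6732, 10183 and 8677 counts in APP.3, APP.4, WT.1 and WT.2, or 246, 217, 232 and 245 CPM. The groups overlapped. Its log2 fold change was -0.04 with a 95% interval of -0.22 to 0.14 (adjusted p 0.906, edgeR quasi-likelihood test), and it became 0.05 without APP.4 and 0.00 without WT.2. Nearly all its counts, 99.2% in both groups, lay on Miat-201, the transcript of 8758 bases that holds the matches shown above. The other 4 Miat transcripts were rare, 3 of them with under 100 counts over all libraries.

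Snhg11 (chr2:158375638-158386145, plus strand), a neuronal snoRNA host that GENCODE M21 lists as protein-coding, had 29865, 37482, 50478 and 38371 counts in APP.3, APP.4, WT.1 and WT.2. In CPM these were 1029, 1210, 1149 and 1082, with APP.3 the lowest and APP.4 the highest library. The log2 fold change was 0.01 with a 95% interval of -0.18 to 0.19 and an adjusted p of 0.991 in the edgeR quasi-likelihood test. Without APP.4 it was -0.11, and without WT.2 it was -0.03. Snhg11-201 held 97.6% of the counts in both groups. Both snoRNAs annotated in its introns were counted, Gm25187 with 19, 10, 26 and 23 counts and Gm25129 with 12, 9, 22 and 19, at log2 fold changes of -0.35 and -0.56 (adjusted p 0.845 and 0.715, edgeR quasi-likelihood test). Counts this low could not show a change of that size.

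Gas5 (chr1:161034422-161038539, plus strand), whose spliced RNA is a target of nonsense-mediated decay and whose introns encode box C/D snoRNAs, had 3051, 3334, 3830 and 3356 counts in APP.3, APP.4, WT.1 and WT.2. In CPM these were 105, 108, 87.2 and 94.7, so that both APP mice were above both WT mice and close to each other. The mean was 106 ± 1.75 CPM in APP and 90.9 ± 5.32 CPM in WT (SD, n = 2 each). The log2 fold change was 0.23 with a 95% interval of 0.07 to 0.38. The adjusted p was 0.208 in edgeR's quasi-likelihood test. Leaving out 1 library gave 0.17 to 0.29, with an adjusted p of 0.0118 without APP.3 and 0.0418 without APP.4 (edgeR quasi-likelihood test).

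Higher Gas5 values were found for most but not all of its isoforms. Of the 20 transcripts 15 had higher values in APP and 5 lower, with a median log2 fold change of 0.22 and none past an adjusted p of 0.05 in the edgeR quasi-likelihood test. The retained-intron transcript Gas5-201, which shared the first place in abundance with Gas5-203, had a log2 fold change of 0.26 and took 22.3% of the gene's counts in APP and 21.8% in WT. This difference in share of 0.53 percentage points rested on single libraries, being -0.43 without WT.1, 1.49 without WT.2 and 0.19 without APP.4. For the lincRNA isoform Gas5-203 the log2 fold change was 0.33, at an adjusted p of 0.190, and for the retained-intron Gas5-218 and Gas5-211 it was 0.29 and 0.12. Annotated retained-intron transcripts made up 16 of the 20 and 75.2% of the counts. For 14 of the 20 every 31-base stretch was also present in another Gas5 transcript, and 7 had under 100 counts over all libraries. The split between isoforms thus depended on how shared reads were assigned, and the isoforms are not separate observations. Gas5-206 and Gas5-202, with the least shared stretches (46.7% and 64.7%), had log2 fold changes of -0.07 and 0.02. Gas5-203, given above, came next at 74.8%. None of the 10 snoRNAs annotated within Gas5 had a counted row.

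Snhg14 (chr7:59307924-59975759, minus strand) was counted as 14 transcripts spread along the locus. It had 108932, 134358, 194846 and 145408 counts in APP.3, APP.4, WT.1 and WT.2, or 3755, 4338, 4434 and 4102 CPM. APP.3 was the lowest library and APP.4 lay between the WT mice. The log2 fold change was -0.08 with a 95% interval of -0.24 to 0.09 and an adjusted p of 0.755 in the edgeR quasi-likelihood test. Dropping APP.3 turned it to 0.02, and dropping APP.4 made it -0.18 with an adjusted p of 0.00301 in the edgeR quasi-likelihood test.

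Along Snhg14 the level per kb rose and fell by more than an order of magnitude while the difference between the groups stayed small at each transcript. Snhg14-208 was the highest, with 1271, 1479, 1512 and 1339 CPM per kb in APP.3, APP.4, WT.1 and WT.2. Snhg14-212, at the far 3′ end, was the lowest with 9.94 to 10.1 CPM per kb in the 4 libraries. At the 5′ end, next to Snrpn, Snhg14-211 had 53.0, 52.0, 54.4 and 52.4 CPM per kb. The log2 fold changes of the 14 ran from -0.17 to 0.08 with a median of -0.05, 12 of them below 0 and 0 past an adjusted p of 0.05 in the edgeR quasi-likelihood test. The abundant Snhg14-206, Snhg14-203 and Snhg14-210 had -0.10, -0.13 and -0.04.

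Much of Snhg14 was counted on transcripts built of repeats. In 5 of the 14, which held 56.9% of the gene's counts, more than 30% of the 31-base stretches occurred again in the same transcript. As an example, this run of 147 bases, bases 1 to 147 of Snhg14-203 (chr7:59676393-59696230, minus strand, GENCODE M21), was present 2 times in that transcript, spanned an exon junction and was also present in 1 other counted Snhg14 transcript, and in no counted lncRNA transcript outside the gene.
Snhg14-203, bases 1 to 147: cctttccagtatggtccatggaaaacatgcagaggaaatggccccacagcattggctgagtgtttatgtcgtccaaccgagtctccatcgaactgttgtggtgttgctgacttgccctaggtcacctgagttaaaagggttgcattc
Reads from such copies cannot be placed in 1 copy. Snhg14-208, the highest per kb, had 68.3% repeated stretches, and Snhg14-212, the lowest, had 0%. Snhg14-205, with 75.6%, was low all the same, at 20.6 to 23.3 CPM per kb. The part of repeats in the levels per kb was not tested. With the gene summed over the transcripts with under 10% repeated stretches, its log2 fold change was -0.07, against -0.08 over all 14.

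**Figure D3:**
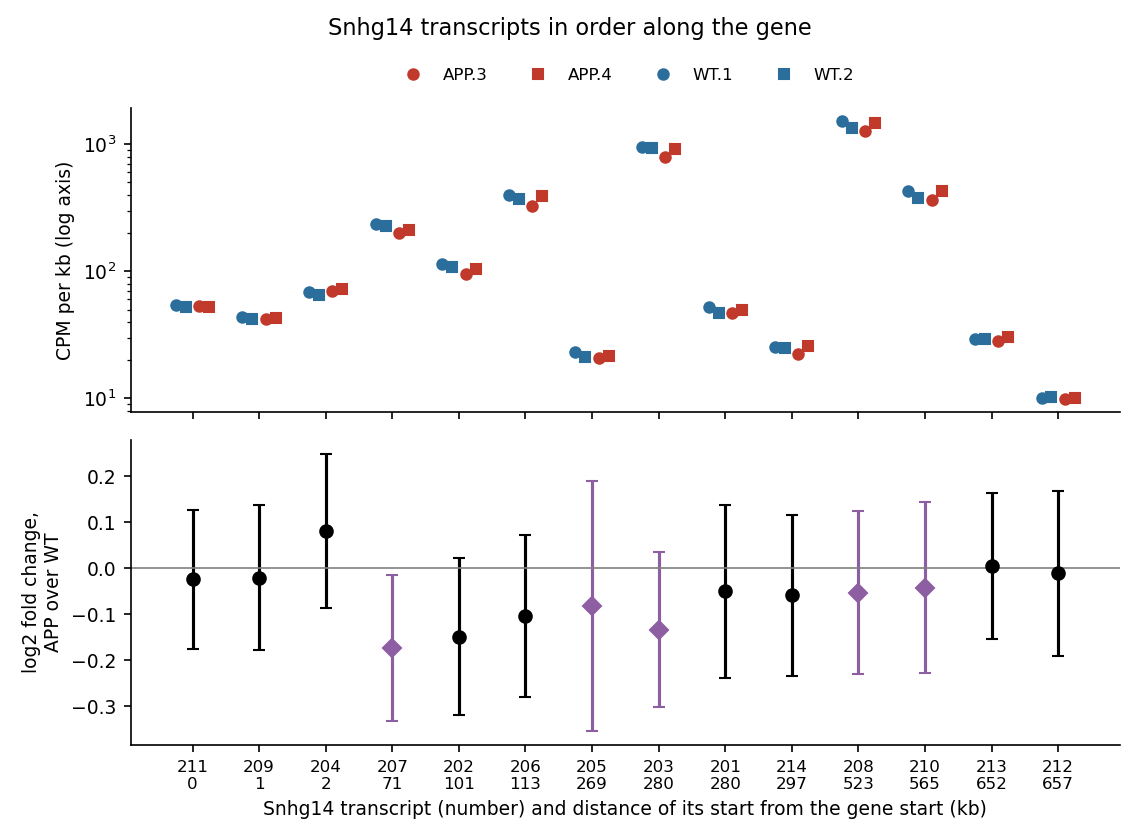
The 14 counted Snhg14 transcripts in order of their distance from the gene start (number and distance in kb on the horizontal axis). The upper panel gives CPM per kb on a log axis for each library and the lower panel the log2 fold change of APP over WT with its 95% interval. Purple diamonds are the 5 transcripts with over 30% repeated stretches. Levels range from about 10 CPM per kb (9.94 in Snhg14-212) to 1512 CPM per kb in Snhg14-208, and the fold changes from -0.17 to 0.08.

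The genes that flank or face Snhg14 were counted too. Ube3a, the ubiquitin ligase read from the opposite strand, had 6690, 6676, 9977 and 7886 counts in APP.3, APP.4, WT.1 and WT.2 and a log2 fold change of -0.01. Snrpn, 6736 bases upstream, had -0.10. Of the 208 snoRNAs annotated inside Snhg14 none had a counted row. For Snhg1 only hosted and neighbouring genes were counted. Its intronic snoRNA Snord22 had 77, 134, 146 and 65 counts, which overlapped between the groups (log2 fold change 0.43, adjusted p 0.661, edgeR quasi-likelihood test), and Slc3a2, an amino acid transporter subunit 106 bases away on the other strand, had a log2 fold change of 0.03.

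The 2 APP mice differed more from each other than the WT mice did in 5 of the 6 genes, all but Gas5. The log2 difference of APP.3 from APP.4 was -0.23 for Snhg11, -0.21 for Snhg14 and -0.14 for Malat1, but 0.22 for Neat1 and 0.18 for Miat, and it was -0.03 for Gas5. The median size of this difference over the 9348 features above 10 CPM was 0.104, and 0.0629 between the WT mice. Snhg11, Snhg14 and Malat1 were thus lower in APP.3, as was the sum of striatal markers, and Neat1 and Miat were higher there. The part of dissection in these differences was not tested.

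**Figure D4:**
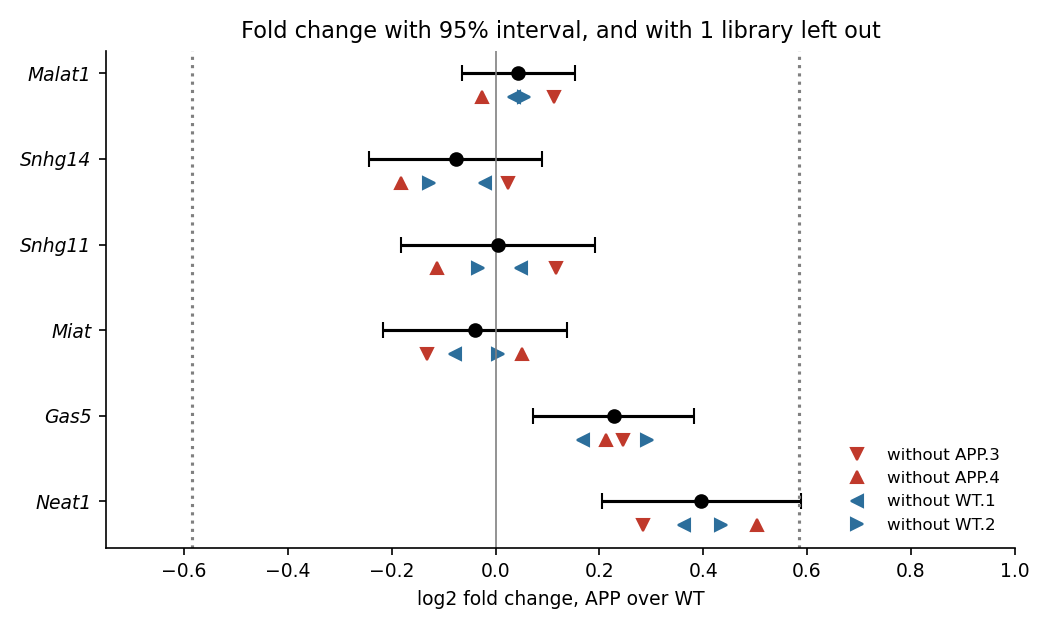
Log2 fold change of APP over WT (horizontal axis) for 6 lncRNA genes, with the 95% interval of the edgeR quasi-likelihood fit (black) and the value with 1 library left out (triangles below). Dotted lines mark the 1.5-fold cut-off. Only Neat1 and Gas5 keep the same side of 0 in every fit, and Malat1, Miat, Snhg11 and Snhg14 cross 0. The groups did not overlap for Neat1 and Gas5, so leaving out 1 library could hardly turn their sign. Among all features 21.3% were likewise higher in APP without overlap.

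The genes that encode the protein partners of these RNAs showed no called change in RNA level. Protein levels were not measured. All 16 listed paraspeckle proteins were counted, 0 past an adjusted p of 0.05 in the edgeR quasi-likelihood test (2 at an unadjusted p under 0.05), with a median log2 fold change of 0.00. The core proteins Sfpq, Nono and Pspc1 had -0.07, 0.00 and -0.03. Hnrnpa1, an RNA-binding protein, and Smarca4, a chromatin remodeller that associates with paraspeckles, were the 2 with the smallest p, at 0.16 and -0.14 (adjusted p 0.359 and 0.393). Hnrnph3 and Taf15, both RNA-binding, followed at 0.17 and 0.15.

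Of 19 genes for speckle and splicing proteins 0 passed the adjusted p (1 at an unadjusted p under 0.05), with a median of -0.01. The splicing factors Srsf1 and Srsf2 had 0.10 and -0.03, and the Miat partners Celf1 and Sf1 had -0.01 and -0.07. Qk, an RNA-binding protein that also binds Miat and is prominent in oligodendrocytes, had 16289, 18498, 20784 and 15993 counts in APP.3, APP.4, WT.1 and WT.2. Scaled for depth both APP mice were above both WT mice, with 579 ± 25.3 against 462 ± 15.4 CPM (SD, n = 2 each), a log2 fold change of 0.33 and an adjusted p of 0.0652 (edgeR quasi-likelihood test). Srsf3 and U2af2, also splicing factors, had 0.12 and -0.09.

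Other snoRNA hosts and the RNA decay machinery were likewise without a called gene. Of 17 other host lncRNAs 11 were counted, with 0 past the adjusted p, 0 at an unadjusted p under 0.05 and a median log2 fold change of -0.05. The sign of that median was not stable, since it was 0.06 without WT.2 and 0.0025 when at least 10 counts were required in every library. Snhg15 had the widest value, 0.73 (adjusted p 0.420, edgeR quasi-likelihood test) from 48, 81, 69 and 35 counts, and Snhg17, Snhg20 and Epb41l4aos had 0.18, -0.20 and 0.41. The 10 nonsense-mediated decay factors, for which Gas5 is a textbook target, had a median of -0.05 with 0 past either threshold. Upf3a, Upf2, Smg6 and Smg5 had -0.25, -0.13, 0.10 and -0.08. The 13 factors of nuclear RNA decay and retention had a median of 0.01, again with 0 past either threshold, and their widest values were 0.22 for the exosome subunit Exosc3 and 0.17 for the m6A writer subunit Mettl14. Exosc10 and Rbm7, further parts of that machinery, had 0.11 and 0.08. The median over all 18386 features was 0.00.

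**Figure D5:**
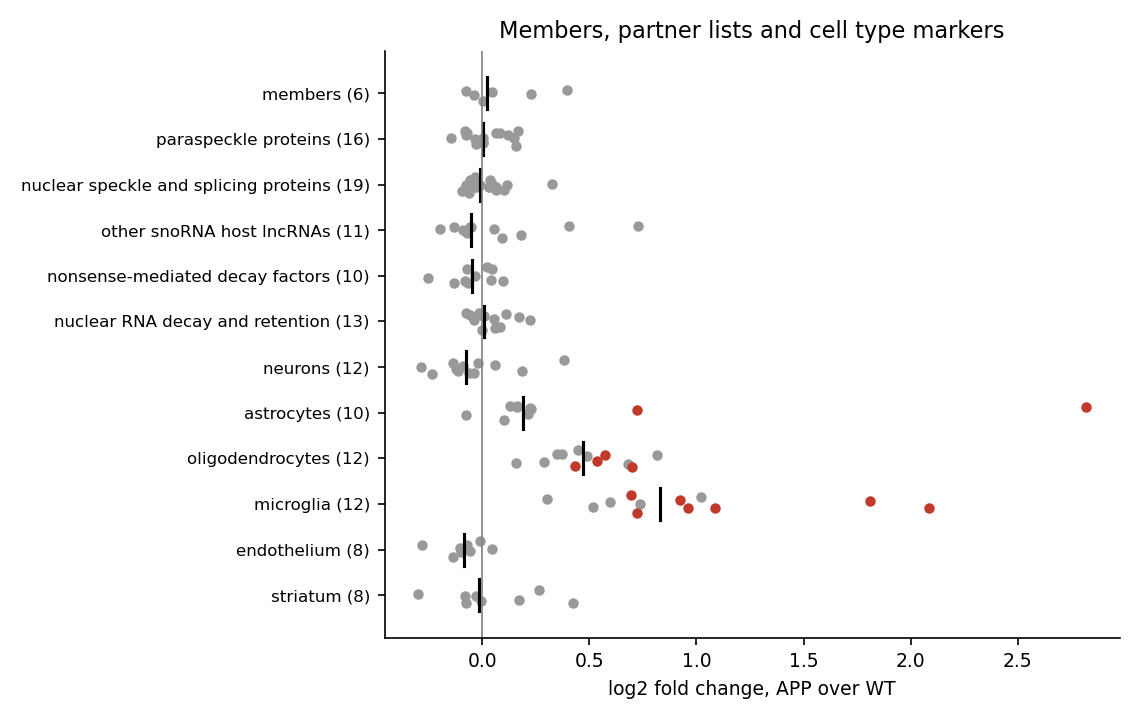
Log2 fold change of APP over WT (horizontal axis) for the 6 members, 5 lists of partner and related genes and 6 lists of cell type markers, with the number of counted genes in brackets. Each point is a gene, black bars are medians and red points passed an adjusted p of 0.05 in the edgeR quasi-likelihood test. The red points, 2 astrocyte, 4 oligodendrocyte and 7 microglial genes, all lie among the glial markers, above 0.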

How the data were processed

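Per the study's methods, total cortical RNA was depleted of ribosomal RNA, sequenced strand-specifically in pairs on a HiSeq2500, cleaned of ribosomal reads and aligned by FANSe2 to Ensembl mouse transcripts with up to 7 mismatches. Transcripts under 10 reads were dropped. The submitters' processing notes name CASAVA 1.8, edgeR and a human genome label (hg19) although the samples are mouse. The Ensembl release and the handling of reads shared by isoforms are not given in the sources used here. The deposited values used were raw read counts per transcript, with no normalization by the authors. The 4 other columns of per-sample values and the 4 columns of the authors' own comparison (fold changes and p-values) were not used.

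Transcripts were matched by identifier to GENCODE M21 (GRCm38; 36858 of 37539, of which 8274 carried no symbol), counts were summed per gene, and APP and WT were compared with edgeR 4.0.16 (R 4.3.3), using TMM scaling, quasi-likelihood F-tests and Benjamini-Hochberg adjustment over all features, with a prior count of 2 and no further filter. CPM use TMM-scaled totals. CPM per kb sum each transcript's CPM over its length. The scripts were tested on simulated data. Named genes were all members, their transcripts with at least 10% of a gene's counts, hosted snoRNAs, the nearest neighbours, the fixed partners, up to 4 genes of smallest p in each list and the 3 genes nearest to Malat1 and to Neat1. Frmd8, Ube3a, Snrpn and Slc3a2 are such neighbours. A few genes that this rule names are not reported here. A few transcripts and genes given as the ends of a range (Snhg14-211, Snhg14-212) were chosen after their values were seen. Members, lists and tests were chosen with earlier results of these data known. The depth of 28525117 to 43881196 counts bounds counting error for abundant members, while biological spread rests on 2 mice per group. Alternatives were DESeq2 1.42.0, edgeR's exact and likelihood ratio tests, other scalings, a count filter of 10 in every library and each library left out.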

Additional observations from a re-analysis of the deposited data

How the results depend on the processing

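No paired analysis was made, since neither the labels nor the study's methods pair APP with WT mice. The numbers 3 and 4 of the APP columns match no sample number in the labels, so these columns were assigned to their group only. The count of member genes past an adjusted p of 0.05, 0 in the quasi-likelihood test, was 1 (Neat1, log2 fold change 0.40) with DESeq2, the exact test and the likelihood ratio test, and 0 to 3 with 1 library left out (3 without APP.3 or without APP.4). Member transcripts past it numbered 1, but 0 with library totals without TMM and 0 to 6 with 1 library left out (0 without WT.1 or WT.2, 3 without APP.3, 6 without APP.4). Among the partner lists, 1 gene passed with DESeq2, and 0 to 6 with 1 library left out, of which 0 to 1 were called (1 without APP.3). Among neighbours and hosted snoRNAs, 1 was called with the exact and 1 with the likelihood ratio test, and 0 to 1 with 1 library left out, where 0 to 2 passed the adjusted p alone. With 1 library left out, the log2 fold changes ran from -0.026 to 0.11 for Malat1, 0.28 to 0.50 for Neat1, -0.13 to 0.052 for Miat, -0.11 to 0.12 for Snhg11, 0.17 to 0.29 for Gas5 and -0.18 to 0.023 for Snhg14. The sign turned for Malat1 without APP.4 (-0.026), Miat without APP.4 (0.052) and without WT.2 (0.0046), Snhg11 without APP.4 (-0.11) and without WT.2 (-0.033) and Snhg14 without APP.3 (0.023). In these fits the lone library is assumed to vary like the other group, so fits without an APP mouse take their spread from the WT pair, which is the narrower one. Divided by the longest transcript, the WT level became 622 CPM per kb for Snhg14, 35.6 for Gas5 and 27.2 for Miat. The difference in isoform share between APP and WT, in percentage points, ran from -0.43 to 1.49 for Gas5-201, -0.20 to 0.90 for Snhg14-208, -0.27 to 0.15 for Snhg11-201 and -0.17 to 0.15 for Miat-201 with 1 library left out, so that each turned sign. The median of the other snoRNA hosts turned from -0.05 to 0.0025 with the filter of 10 counts and to 0.06 without WT.2, that of the paraspeckle proteins from 0.00 to -0.0086 and that of the speckle proteins from -0.01 to 0.015 without APP.3. No other alternative changed the call or direction of a member gene. The sum of Snhg14 over transcripts with little repeated sequence was chosen after seeing the data.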
